A study of Mus musculus with 4 samples.

Results

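Molecular chaperones hold other proteins in a foldable state, and folding enzymes help them form disulfide bonds. The set described here comprised probe sets whose single annotated symbol names an Hsp70, Hsp110, Hsp60, Hsp10 or small heat shock protein, the endoplasmic reticulum Hsp90, a J-domain protein, a subunit of the chaperonin TRiC, a protein disulfide isomerase, calreticulin, calnexin, or the heat shock factors Hsf1 and Hsf2. The rule matched 87 of 12488 probe sets, which named 62 of the 8251 genes with a single-gene probe set. By compartment these were 38 genes of the cytosol and nucleus, 13 of the endoplasmic reticulum, 7 of the mitochondria, 2 of vesicles and endosomes, Hsf2, and Hspb11. Hsf1 had no matching probe set and was not analysed here, and 2 more probe sets that name a J-domain gene beside another gene were left out.

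The series compared CD4+CD8+ double-positive thymocytes, the main immature T cell of the thymus, with and without dexamethasone, a synthetic glucocorticoid. Thymus donors were C3H/HeN mice, female and 4 weeks of age, per the labels. Microbead-sorted cells stood in culture for 3 h, in a volume of 3 ml and at a density of 5.0E+06 per ml. The control cells received medium with 0.1% PBS and the treated cells 1e-07 M dexamethasone in PBS, and all cells, controls included, went through the sort and the culture. Each group had 2 arrays, described in the series design as technical replicate extracts, so the p-values measure only the spread between these extracts. How many animals were pooled is not stated.

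As background, Hsp70 proteins bind short hydrophobic stretches of unfolded chains in a cycle driven by ATP. J-domain proteins start that cycle by stimulating ATP hydrolysis, and nucleotide exchange factors such as the Hsp110 proteins end it. The glucocorticoid receptor itself is held in a hormone-binding state by Hsp70, a J-domain protein and Hsp90. Cytosolic stress acts on these genes through heat shock factors, and stress of the endoplasmic reticulum acts through the unfolded protein response.

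On the scaling of the deposited values, most genes of this machinery were estimated close to their level in medium. Of the 62 genes, 53 passed the filter on dim signals, and 0 of these 53 passed the threshold of adjusted p under 0.05 in limma, in either direction. Over all 5582 genes tested, 3.91% passed, 1.88% upwards and 2.02% downwards. Before adjustment, limma gave p under 0.05 for 13 of the 53, or 24.5%, against 19.9% of all genes. Of the 13, 8 were higher with dexamethasone (background 9.15%) and 5 lower (background 10.7%). The 2 groups of arrays did not overlap for 24 of the 53 genes, or 45.3%, against 50.5% of all genes. In 14 of the 24 dexamethasone was higher (24.7% of all genes) and in 10 lower (25.7% of all genes), so the shares lay near those of all genes.

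On that scaling most differences were small as well as uncalled. The median log2 difference, dexamethasone minus medium, was 0.03 over the 53 genes and 0.00 over all genes, and the median absolute difference was 0.15 against 0.16. The 95% interval of the difference lay wholly within 2-fold either way for 47 of the 53 genes (88.7%, against 88.0% of all genes). It lay within 0.5 on the log2 scale for 30 of them (56.6%, against 50.2%). Hspb8 was the 1 gene of the 53 with an estimated difference of 2-fold or more, and its medium level was at background. By contrast Fkbp5, a receptor co-chaperone and glucocorticoid target outside the set, had signals of 660 and 590 in medium and 2382 and 2152 with dexamethasone, and rose by 1.86 ± 0.08 (SE, log2 scale).

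**Figure D1:**
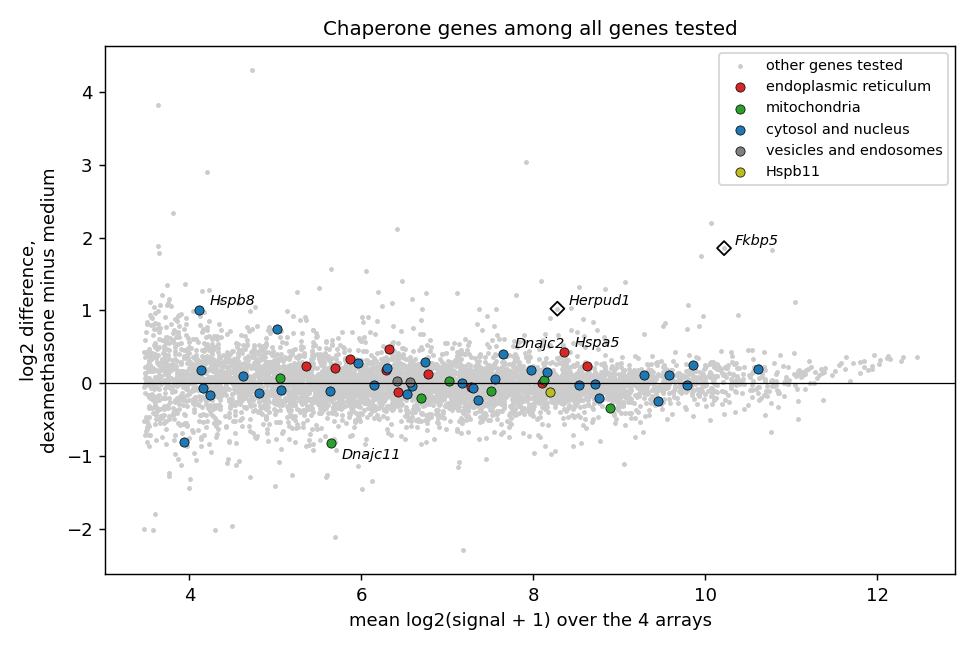
Each point is a gene, with its mean log2(signal + 1) over the 4 arrays on the x axis and its log2 difference, dexamethasone minus medium, on the y axis. The 53 chaperone genes are coloured by compartment, grey points are the other genes tested, and diamonds mark Fkbp5 and Herpud1. The chaperone genes lie in the band of the other genes, between -0.82 and 1.0, while Fkbp5 lies at 1.86 and Herpud1 at 1.02.

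The array signal is in arbitrary units on a linear scale, and a signal of 14 or less was treated as background, the highest value on probe sets for bacterial and yeast transcripts. Apart from choosing which probe sets and genes to show, signals of different probe sets are not ranked against each other. Sums over marker lists are used only to compare arrays. Of the 53 tested genes, 51 were above background on all 4 arrays. All directions are relative to the deposited scaling. The 9 probe sets for hybridization controls, foreign transcripts added at hybridization, averaged 1.37-fold more signal with dexamethasone than in medium. Being added at that step, these controls do not measure the RNA per cell. Scaling to them moved the median of all genes from 0.00 to -0.45 and that of the chaperone genes from 0.03 to -0.42. Under that scaling 18 of the 53 fell and 0 rose, while 43.9% of all genes fell.

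**Figure D2:**
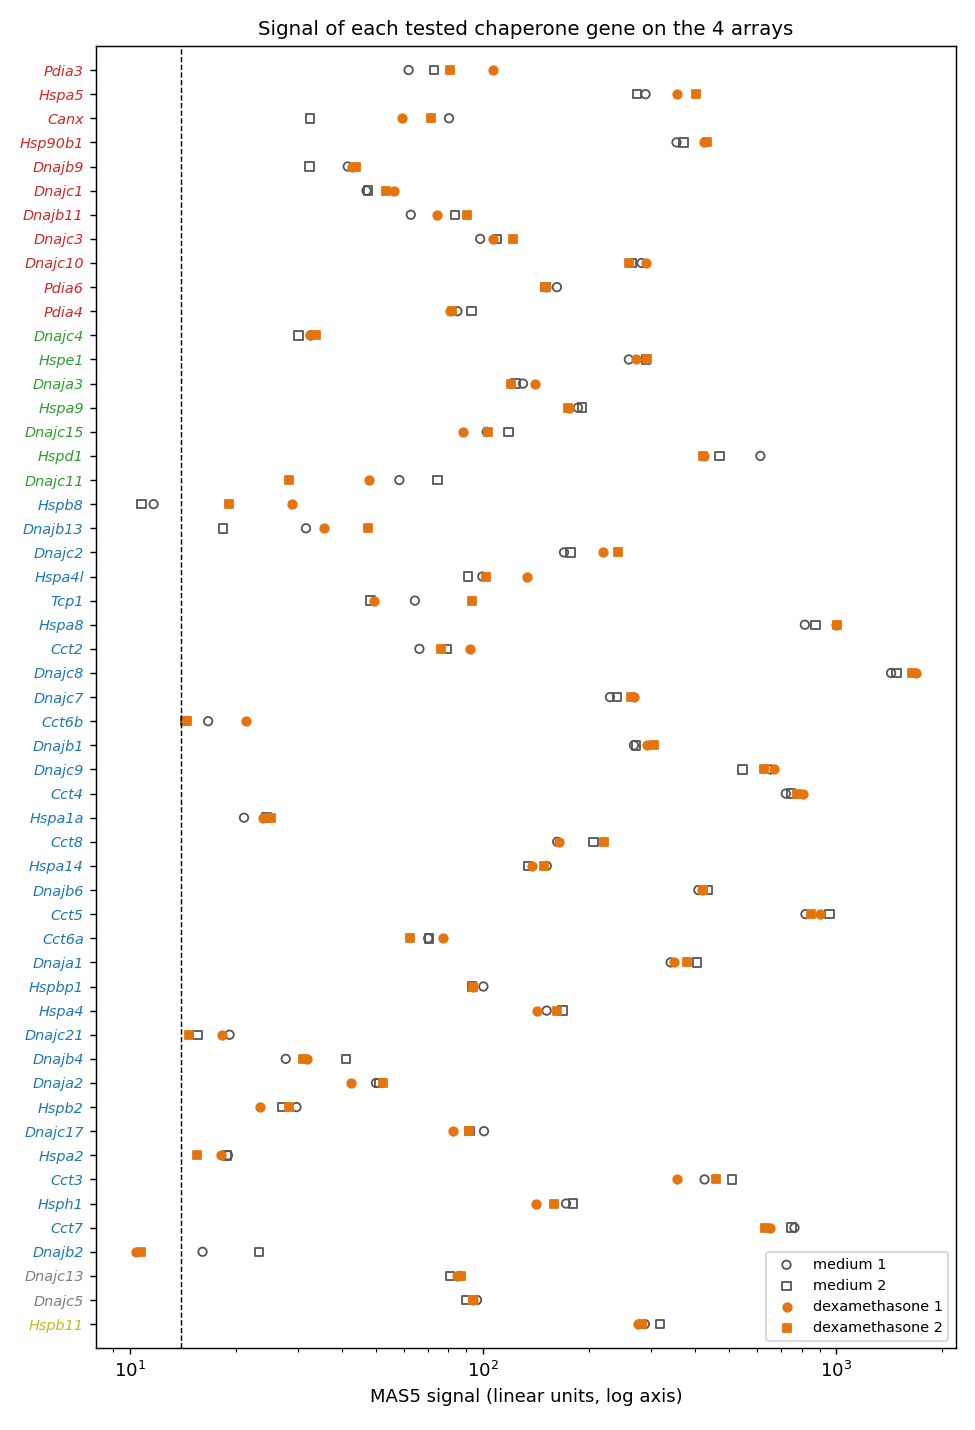
Signal of each of the 53 tested chaperone genes (rows) on each array, on a log axis, in medium (open grey) and with dexamethasone (filled orange), with circles for replicate 1 and squares for replicate 2. The dashed line marks the background of 14, and name colours give the compartment as in the plot of differences. For most genes the 4 symbols lie within a narrow range, and Hspb8 and Dnajb2 straddle the background line.

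On the deposited scaling, genes of the endoplasmic reticulum were mostly a little higher with dexamethasone. Of the 11 tested, 9 were higher and 2 lower, beside 2797 higher and 2785 lower of all 5582 genes. The median log2 difference of the 11 was 0.21, which became -0.24 when arrays were scaled to the hybridization controls. Of these 11, 0 passed the threshold. Each dexamethasone array set against each medium array gave a median between 0.12 and 0.19, with 7 or 8 of the 11 genes higher. Leaving out any single gene kept the median between 0.19 and 0.22. That range depends only on the middle-ranked genes, so it does not measure the spread between extracts. Actin control probe sets at the 3′ end read 1.15 and 1.06 times those at the 5′ end on the medium arrays and 1.40 and 1.24 times on the dexamethasone arrays. The Gapdh controls gave ratios of 0.838 and 0.845 for medium against 0.904 and 0.823 for dexamethasone, which overlapped. Such ratios follow RNA quality, and their part in the values of these genes was not tested.

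Hspa5 encodes BiP, the Hsp70 of the endoplasmic reticulum and a standard target of the unfolded protein response. It came closest to the threshold of all 53 genes. Its signals were 289 and 273 in medium and 354 and 403 with dexamethasone. Both treated extracts were above both control extracts. The log2 difference was 0.42 ± 0.09 (SE), a 1.34-fold difference with a 95% interval of 1.16-fold to 1.56-fold (limma adjusted p = 0.0554). It passed upwards in 4 of 16 alternative analyses, with adjusted p from 0.0395 to 0.902 over the 16, and stood at -0.03 with scaling to the hybridization controls.

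Hsp90b1 encodes Grp94, the Hsp90 of the endoplasmic reticulum, which folds integrins and Toll-like receptors. Its signals were 354 and 371 in medium and 423 and 433 with dexamethasone, again without overlap. The log2 difference was 0.24 ± 0.07, or 1.18-fold, and did not pass (limma adjusted p = 0.122). For both Hspa5 and Hsp90b1, each treated extract exceeded each control extract.

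The J-domain partners of BiP were all estimated at or above their level in medium, and 0 of 5 passed. Dnajc1 was at 46.9 and 47.3 in medium and 56.0 and 53.1 with dexamethasone. Dnajb9, which encodes ERdj4, was at 41.5 and 32.3 in medium and 42.6 and 43.9 with dexamethasone. The dexamethasone values of both genes lay above the medium values, narrowly for Dnajb9. Dnajc3, which encodes P58IPK, was at 98.4 and 110 in medium and 107 and 122 with dexamethasone, and the groups overlapped. Dnajb11, which encodes ERdj3, overlapped too, at 62.6 and 83.6 against 74.3 and 90.3. Dnajc10, the disulfide reductase ERdj5, was at 282 and 264.5 in medium and 291 and 259 with dexamethasone. The groups overlapped, and its log2 difference was 0.01 with a 95% interval of -0.20 to 0.22.

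Disulfide isomerases and lectin chaperones gave no common direction. Pdia3 encodes ERp57, which works with calnexin and calreticulin and helps load MHC class I. Its signals were 61.7 and 72.9 in medium and 107 and 80.7 with dexamethasone, or 0.47 ± 0.17 as a log2 difference (adjusted p = 0.196 in limma). The treated values did not overlap the controls but lay far apart from each other. Pdia4, or ERp72, was at 84.8 and 93.0 in medium and 81.0 and 82.0 with dexamethasone, a log2 difference of -0.12. Pdia6 was at 162 and 151 in medium and 151 and 151 with dexamethasone, and its log2 difference was -0.05 with a 95% interval of -0.27 to 0.16. Canx, or calnexin, was at 80.3 and 32.4 in medium and 59.0 and 71.4 with dexamethasone. The spread between its medium extracts exceeded the difference between groups, and its 95% interval ran from -0.60 to 1.28. The probe sets for Calr and Pdia5 were at background on all 4 arrays, at most 6.8, and give no measure of these genes.

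**Figure D3:**
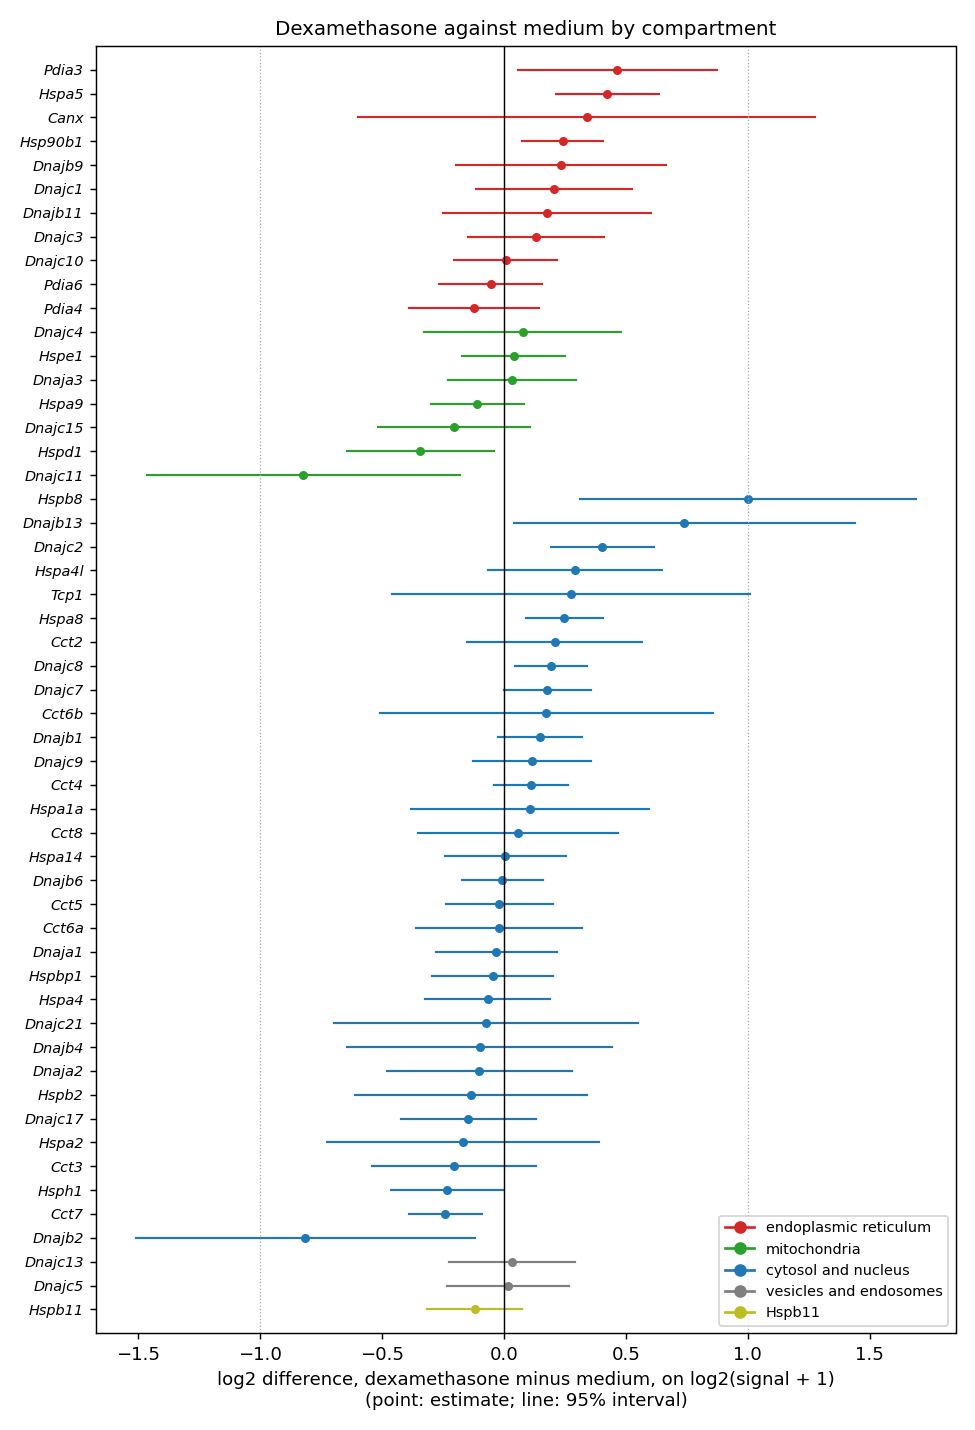
Log2 difference, dexamethasone minus medium, of each tested chaperone gene (points) with its 95% interval (lines), grouped and coloured by compartment and ordered by size within each. Dotted lines mark 2-fold. On the deposited scaling 9 of 11 points lie above 0 in the endoplasmic reticulum, 3 of 7 in the mitochondria, and 16 of 32 in the cytosol and nucleus, while scaling to the hybridization controls moves the median of the endoplasmic reticulum from 0.21 to -0.24.

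Part of these genes share a promoter sequence. The ER stress response element, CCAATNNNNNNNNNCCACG on either strand, is bound through its ends by NF-Y and by ATF6 or XBP1. It was searched in RefSeq promoter windows of 300 bases (GRCm38.p6, 250 before to 50 after each annotated start), which were at hand for 55 of the 62 genes. It was found in 6 of 13 genes of the endoplasmic reticulum (46.2%), in 0 of 34 of the cytosol and nucleus, in 0 of 5 of the mitochondria, and in 37 of all 27025 genes with a window (0.137%). The sites are shown because the genes that carry them include Hspa5 and Hsp90b1. Capitals mark the element, written 5′ to 3′ along the strand of the gene, and the proximal Hsp90b1 site and the Calr site carry its reverse complement.
Hspa5, chr2:34772010-34772058, plus strand: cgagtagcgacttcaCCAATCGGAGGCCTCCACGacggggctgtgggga
Hsp90b1 distal, chr10:86705623-86705671, minus strand: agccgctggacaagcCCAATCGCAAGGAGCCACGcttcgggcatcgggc
Hsp90b1 proximal, chr10:86705518-86705566, minus strand: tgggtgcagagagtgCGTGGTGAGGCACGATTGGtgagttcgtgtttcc
Calr, chr8:84847060-84847108, minus strand: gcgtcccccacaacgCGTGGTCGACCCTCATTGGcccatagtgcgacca
Canx, chr11:50325785-50325833, minus strand: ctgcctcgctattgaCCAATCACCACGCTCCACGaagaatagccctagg
Dnajc3, chr14:118937812-118937860, plus strand: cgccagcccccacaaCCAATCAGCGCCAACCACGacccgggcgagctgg
Pdia6, chr12:17266476-17266524, plus strand: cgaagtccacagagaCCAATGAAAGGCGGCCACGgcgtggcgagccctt

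The element begins 65 bases before the start of Hspa5, 212 and 107 before that of Hsp90b1, 162 for Calr, 145 for Canx, 105 for Dnajc3 and 98 for Pdia6. Among the tested genes, the 5 that carry it had log2 differences from -0.05 (Pdia6) to 0.42 (Hspa5), with a median of 0.24 and 4 of 5 higher. The 6 without it ranged from -0.12 (Pdia4) to 0.47 (Pdia3), with a median of 0.19 and 5 of 6 higher. The ranges of the genes with and without the element overlapped widely. A palindromic glucocorticoid response element, GNACANNNTGTNC, was found in 0 of the 55 windows and in 0.537% of all genes. A match in this window is a description of the letters, and the absence of one says nothing about binding elsewhere.

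In the cytosol and nucleus the chaperone genes divided evenly. Of the 32 tested, 16 were higher and 16 lower with dexamethasone, the median log2 difference was 0.00, and 0 passed. Hspa8 encodes Hsc70, the constitutive Hsp70. Its signals were 818 and 877 in medium and 1003 and 1007 with dexamethasone, so the groups did not overlap. The log2 difference was 0.25 ± 0.07, or 1.19-fold with a 95% interval of 1.06-fold to 1.32-fold (limma adjusted p = 0.102).

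Probe sets for the stress-inducible Hsp70 genes gave dim signals in both groups. The Hspa1a probe set was at 21.1 and 24.4 in medium and 23.9 and 25.1 with dexamethasone, just above background, with a log2 difference of 0.11. The Hspa1b probe set was at background on all 4 arrays and gives no measure of this gene. Both genes are nearly identical in sequence, so the 2 probe sets may share signal. Hspa1l, a testis relative, was above background on 1 array of each group and was not tested. Hspa2, another testis form, had signals of 15.5 to 19.0.

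The exchange factors of the Hsp110 family differed in direction. Hsph1 was at 172 and 181 in medium and 141 and 159 with dexamethasone, a log2 difference of -0.23 ± 0.10 without overlap (limma adjusted p = 0.247). Hspa4l was at 99.8 and 90.8 in medium and 133 and 102 with dexamethasone, a log2 difference of 0.29 ± 0.15 without overlap, which also did not pass. Hspa4 had a log2 difference of -0.07 with a 95% interval of -0.32 to 0.19. Hspbp1, an inhibitor and exchange factor of Hsp70, was at -0.04.

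Dnajc2 and Hspa14 form the ribosome-associated complex that meets new chains as they leave the ribosome, and the 2 partners differed in their values. Dnajc2 was at 170 and 178 in medium and 219 and 242 with dexamethasone. The dexamethasone values lay above the medium values, with a log2 difference of 0.40 ± 0.09, or 1.32-fold (limma adjusted p = 0.0612). It passed upwards in 3 of 16 alternative analyses, with adjusted p from 0.0443 to 0.843, and stood at -0.05 with scaling to the hybridization controls. Its other probe set gave 159 and 168 in medium and 165 and 191 with dexamethasone, overlapping, with a log2 difference of 0.12. Hspa14 was at 152 and 134 in medium and 138 and 150 with dexamethasone, a log2 difference of 0.01 with a 95% interval of -0.24 to 0.26. The difference between Dnajc2 and Hspa14 was not tested.

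By their brightest probe sets, the general J-domain partners of Hsc70 were nearly level. Dnajb1, which encodes Hsp40, was at 268 and 272 in medium and 293 and 306 with dexamethasone, a log2 difference of 0.15 whose 95% interval reached from -0.03 to 0.32. Dnaja1 had a log2 difference of -0.03 with an interval of -0.28 to 0.22, and Dnajb6 of -0.01 with an interval of -0.17 to 0.16. The other Dnajb6 probe set gave a log2 difference of -0.29 without overlap. Dnaja2 was at -0.10 and Dnajb4 at -0.10. Dnajc7, a tetratricopeptide co-chaperone that binds both Hsp70 and Hsp90, was at 229 and 240 in medium and 269 and 263 with dexamethasone, or 1.13-fold.

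Other J-domain proteins of this group act on splicing, histones or ribosome assembly. Dnajc8, found with the spliceosome, was at 1434 and 1485 in medium and 1693 and 1647 with dexamethasone, a log2 difference of 0.19 ± 0.06 without overlap (limma adjusted p = 0.150). Its other probe set gave 573 and 556 in medium and 596 and 500 with dexamethasone, a log2 difference of -0.05, so the 2 probe sets did not share a direction. Dnajc9, a co-chaperone of histones, had a log2 difference of 0.12, Dnajc17 of -0.15 and Dnajc21, a ribosome assembly factor near background, of -0.07. Dnajb13, known from sperm and cilia, was at 31.6 and 18.4 in medium and 35.6 and 47.2 with dexamethasone, a log2 difference of 0.74 ± 0.29 (limma adjusted p = 0.225). Dnajb2 was at 16.1 and 23.3 in medium and at 10.4 and 10.8, which is background, with dexamethasone. Its mean log2 level in medium corresponded to 1.36 times the background of 14, which is not a lower limit of the difference. The fitted interval for dexamethasone ran from 0.351 to 0.922 times the medium level, and Dnajb2 did not pass (limma adjusted p = 0.188). Dnajb3, Dnajb5 and Dnajb8 were at background throughout, at most 9.0.

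TRiC is a double ring of paired subunits that folds actin and tubulin, and it is assembled from the products of Tcp1 and Cct2 to Cct8. Of 9 genes tested, including the testis paralogue Cct6b, 5 were higher, 4 lower and 0 passed, with a median log2 difference of 0.06 on the deposited scaling. Cct3, Cct5 and Cct7 fell with scaling to the hybridization controls, under which 43.9% of all genes fell. Cct7 was at 764 and 750 in medium and 652 and 630 with dexamethasone. Both extracts of each group lay close together and the groups did not overlap, with a log2 difference of -0.24 ± 0.06, or 0.847 times the medium level (limma adjusted p = 0.0970). Cct4 went the other way, at 722 and 746 in medium and 808 and 779 with dexamethasone, a log2 difference of 0.11 with a 95% interval of -0.04 to 0.26. Cct5 was at 821 and 960 in medium and 903 and 851 with dexamethasone, and its log2 difference was -0.02.

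For the other TRiC subunits the groups overlapped. The log2 differences were 0.21 for Cct2, -0.20 for Cct3, -0.02 for Cct6a, 0.17 for Cct6b, 0.06 for Cct8 and 0.28 for Tcp1. Tcp1 was the least precise of them, at 64.3 and 48.2 in medium and 49.1 and 93.0 with dexamethasone. Its 95% interval ran from -0.46 to 1.01. The 9 genes of this single complex thus had no common direction.

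Small heat shock proteins prevent aggregation without using ATP. Hspb8 was at 11.7 and 10.8, or background, in medium and at 28.9 and 19.1 with dexamethasone. Its mean log2 level with dexamethasone corresponded to 1.63 times the background of 14, which is not a lower limit of the difference. The fitted log2 difference of 1.0 ± 0.29 did not pass (limma adjusted p = 0.124). As a fold difference, its interval ran from 1.24 to 3.23. The other Hspb8 probe set was at 1.1 or less on all arrays. Hspb2 had a log2 difference of -0.14, and Hspb1, or Hsp27, was at background on all arrays, at most 4.6. Hspb11, which despite its symbol belongs to the intraflagellar transport machinery, was at 288 and 318 in medium and 275 and 282 with dexamethasone, a log2 difference of -0.12. Hsf2, the heat shock factor on the array, was at background throughout, at most 4.6.

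On the deposited scaling, mitochondrial chaperones had no common direction. Of 7 tested, 4 were lower, 3 higher and 0 passed, with a median log2 difference of -0.11. Leaving out 1 gene at a time moved this median between -0.16 and -0.037, which again depends only on the middle-ranked genes. Hspd1 encodes Hsp60, the barrel that folds proteins of the matrix, and Hspe1 encodes Hsp10, its lid. Hspd1 was at 612 and 469 in medium and 423 and 421 with dexamethasone. Both treated values lay below both controls, but the 2 controls differed from each other by more than the lower control differed from the treated extracts. The log2 difference was -0.34 ± 0.12, or 0.788 times the medium level with a 95% interval of 0.640 to 0.971 (limma adjusted p = 0.196). Its other probe set gave 30.6 and 17.6 in medium and 20.0 and 15.6 with dexamethasone, a log2 difference of -0.38 with overlap. Hspe1 was at 260 and 290 in medium and 273 and 292 with dexamethasone, a log2 difference of 0.04 with a 95% interval of -0.17 to 0.25.

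The genes for barrel and lid lie head to head on chromosome 1. RefSeq places the start of Hspe1 at 55088148 on the plus strand and starts of Hspd1 at 55087932 and 55088243 on the minus strand. Between the first of these and the Hspe1 start lies a run of heat shock elements, inverted repeats of GAA and TTC bound by heat shock factors. Searched as GAANNTTCNNGAA or TTCNNGAANNTTC, which are reverse complements of each other, 3 units in a row were found in 4 of 55 member windows, those of Hspd1, Hspe1, Hsph1 and Dnajb6 (7.27%), and in 0.662% of all genes. Overlapping pairs share units. The shared stretch is shown with its units and spacers in capitals.
Hspe1, chr1:55088053-55088082, plus strand: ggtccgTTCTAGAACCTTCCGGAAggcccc

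The 4 genes with such a run had log2 differences of -0.34 (Hspd1), 0.04 (Hspe1), -0.23 (Hsph1) and -0.01 (Dnajb6). A single pair GAANNTTC was found in 10 of the 55 windows (18.2%) and in 9.04% of all genes. Beside those with a run, the 10 included Dnaja1, Cct2, Hspa1a, Hspa1b, Hspb1 and Hspb8. The other pair, TTCNNGAA, was found in 8 of the 55 windows (14.5%) and in 9.60% of all genes. Beside those with a run, these 8 included Cct5, Cct6a, Dnajb4 and Dnajc10.

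Of the remaining mitochondrial genes, Hspa9 encodes mortalin, the Hsp70 that pulls proteins through the inner membrane. It was at 186 and 191 in medium and 175 and 174 with dexamethasone, a log2 difference of -0.11 with a 95% interval of -0.30 to 0.08. Dnajc11, a protein of the outer membrane tied to cristae, was at 58.1 and 74.4 in medium and 47.8 and 28.2 with dexamethasone. The groups did not overlap, but each was widely spread, and the log2 difference of -0.82 ± 0.27 did not pass (limma adjusted p = 0.159). Dnajc15, linked to protein import, was at 103 and 118 in medium and 88.0 and 104 with dexamethasone, overlapping, a log2 difference of -0.20. Dnaja3, the J-domain partner of mortalin, was at 130 and 124 in medium and 140 and 120.5 with dexamethasone, a difference of 0.03. Dnajc4 was at 32.6 and 30.1 in medium and 32.4 and 33.8 with dexamethasone, a difference of 0.08. Both of these overlapped as well.

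The J-domain proteins of vesicles and endosomes were level. Dnajc5, a chaperone of secretory vesicles, was at 96.4 and 89.7 in medium and 94.2 and 93.9 with dexamethasone, a log2 difference of 0.02 with a 95% interval of -0.23 to 0.27. Dnajc13, which acts on endosomes, was at 86.5 and 80.7 in medium and 84.4 and 86.7 with dexamethasone, a difference of 0.03.

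**Figure D4:**
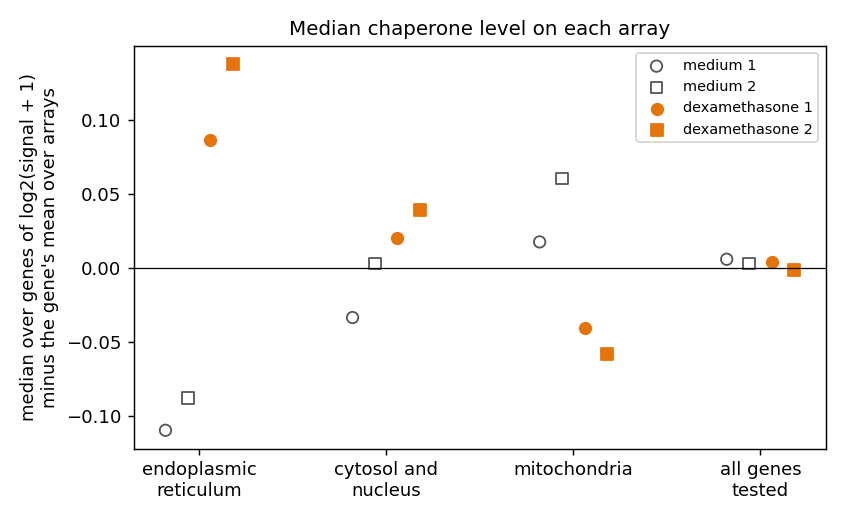
For each compartment and for all 5582 genes, each symbol is 1 array: the median over genes of log2(signal + 1) minus the gene's own mean over the 4 arrays. On the deposited scaling, genes of the endoplasmic reticulum lie at -0.11 and -0.09 in medium and 0.09 and 0.14 with dexamethasone, mitochondrial genes at 0.02 and 0.06 against -0.04 and -0.06, and all genes between 0.00 and 0.01.

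Probe sets of the same gene did not always share a direction. Of the 18 genes with more than 1 probe set, 10 had at least 2 that passed the filter in a fit of probe sets, and all of a gene's differences had the same sign in 5 of these 10. Hspd1, Dnajc2, Dnajc3, Cct5 and Dnajb6 kept a common sign. For Dnajc3 the dimmer probe sets gave 0.34 and 0.40, beside 0.13 for the brightest. For Canx the dimmer probe set was lower with dexamethasone, at 22.4 and 26.9 in medium and 13.1 and 20.2 with dexamethasone, a log2 difference of -0.56 against 0.34 for the brightest. For Dnajb6 the second probe set gave -0.29, at 239 and 219 in medium and 211 and 166 with dexamethasone, beside -0.01 for the brightest. The other probe sets of Cct3 gave -0.12 and 0.05 beside -0.20, those of Pdia6 -0.03 and 0.11 beside -0.05, and that of Cct5 -0.20 beside -0.02. For Hspa4 the others in the fit gave -0.14, 0.01 and 0.39 beside -0.07. Of the 68 member probe sets in that fit, 0 passed in limma, beside 3.51% of all 6701 probe sets, and 12 had an unadjusted p under 0.05, beside 18.9% of all.

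**Figure D5:**
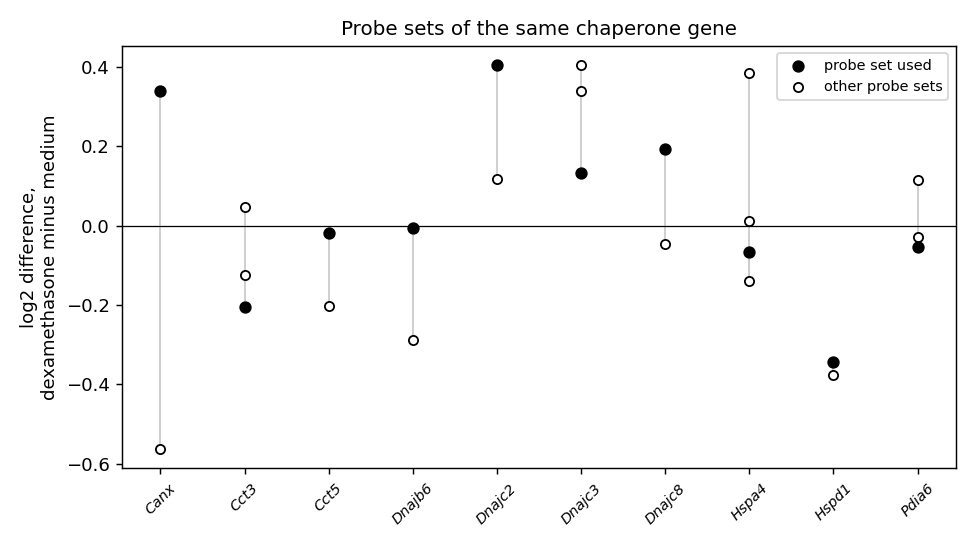
Log2 difference, dexamethasone minus medium, of each probe set that passed the filter, for the 10 chaperone genes with at least 2 such probe sets. Filled points are the brightest probe set of the gene, used in the text, and open points the others. Canx spans -0.56 to 0.34, while the Hspd1 probe sets lie at -0.34 and -0.38.

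On the deposited scaling, folding genes outside the set were also nearly level. Of 77 listed, 51 were tested, and their median log2 difference was -0.02. With scaling to the hybridization controls 28 of these genes fell, while 43.9% of all genes fell. On the deposited scaling 2 rose and 0 fell, while 1.88% of all genes rose and 2.02% fell. Besides Fkbp5 the rise was that of Herpud1, which takes part in degradation at the endoplasmic reticulum. It was at 221 and 212 in medium and 421 and 464 with dexamethasone, a rise of 1.02 ± 0.08 on the log2 scale. It was the 1 gene of 17 tested in a list of other folding factors of the endoplasmic reticulum to pass. That list had 8 of 17 higher and a median of -0.03, beside 0.21 for the chaperones of the same compartment. Hyou1 was at background, and the next largest differences in the list were -0.29 for Uggt1 and 0.24 for Clgn.

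Of 12 genes tested for cytosolic Hsp90 and its co-chaperones, Fkbp5 rose and the other 11 did not pass. Hsp90aa1, the inducible cytosolic Hsp90, was at 897 and 680 in medium and 981 and 1062 with dexamethasone, a log2 difference of 0.39 ± 0.13 (limma adjusted p = 0.174). Fkbp4, the counterpart of Fkbp5 on the receptor, was at 470 and 466 in medium and 439 and 426 with dexamethasone, a log2 difference of -0.11. Stip1, which links Hsp70 to Hsp90, was at 0.05. In the 4 Bag exchange factors, the 9 prefoldin and tubulin cofactors, and the 8 other mitochondrial factors 0 passed. The largest differences there were 0.32 for Bag3 and -0.26 for Bag2, 0.28 for Tbce and 0.26 for Pfdn5, and 0.23 for Htra2 and -0.18 for Tomm70a. Hmox1, a stress gene, was at 0.32 and did not pass.

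The label of the cells was checked against marker genes. All 8 measured double-positive markers of 10 listed were above background on every array, with Cd8a at 2345 to 2585 and Rag1 at 2098 to 2929, and their signals summed to 11802 and 12186 in medium and to 11600 and 12569 with dexamethasone. Of these, Cd8b1 and Ptcra fell. The summed B cell markers, 7 measured of 8, were at 1406 and 1435 in medium and 1913 and 1933 with dexamethasone. Of the 6 tested, 5 were higher, with a median log2 difference of 0.39, and Ighm rose, at 1282 and 1257 against 1751 and 1749. The others did not pass, with differences of 0.55 for Pax5, 0.41 for Blk, 0.37 for Ms4a1, 0.11 for Cd79b and -0.05 for Cd79a. Pax5 and Blk were at background in medium, the groups overlapped for Blk, and Ebf1 was at background on every array. The summed mature T cell markers, 4 of 6, were at 154 and 194 against 239 and 257. Il7r rose, at 49.4 and 58.0 against 147 and 139, while Klf2 and Ccr7 had log2 differences of -0.37 and -0.09 and did not pass, S1pr1 was at background, and the median of the 3 tested was -0.09. Double-negative thymocyte markers, 5 of 6, summed to 336 and 350 against 209 and 225. Of these, Gfi1 fell by 0.76 on the log2 scale, Gata3 had a difference of -0.56 and did not pass (limma adjusted p = 0.0511), and Il2ra, Kit and Cd44 were at background. Stromal markers, 8 of 8, summed to 50.5 and 54.0 against 71.4 and 91.8, and both that were tested were higher. Col1a1 was at 16.5 and 18.4 in medium and 33.5 and 38.2 with dexamethasone, without overlap, and did not pass (limma adjusted p = 0.0502). Pdgfra had a log2 difference of 0.11, and Krt5, Krt8, Krt18, Foxn1, Epcam and Col3a1 were at background. Macrophage and dendritic cell markers, 8 of 8, summed to 104 and 121 against 86.6 and 105. Of the 4 tested, 2 were higher and 0 passed, and Lyz2, Adgre1, Itgam and Fcgr3 were at background. Erythroid markers, 4 of 6, summed to 103 and 117 against 113 and 145, with Hba-a1, the 1 tested, at a log2 difference of 0.15 that did not pass, and Alas2 and Slc4a1 at background. The part of such cells in the values of the chaperone genes was not tested, and in bulk RNA fewer cells of a type and less RNA per cell cannot be told apart.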

How the data were processed

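RNA of 4 samples was measured on Affymetrix arrays. The authors deposited signal intensities on a linear scale. MAS5 is the tool named in the submitters' processing notes, without a version. The arrays share a trimmed mean of 100.06 to 100.07. No detection calls were used. Of 12488 probe sets, 66 were controls, 10833 named 1 gene, 396 several and 1193 none, and the table held 0 columns of other samples. All 87 member symbols equalled those of the RefSeq table.

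Each gene was represented by its brightest probe set on log2(signal + 1) of the deposited values, and genes at or under the 40th percentile of all probe sets were left out. This scale understates changes of dim genes. Groups were compared with lmFit and eBayes (trend) from limma (version 3.58.1, run in R 4.3.3). Tests were two-sided, and p-values were adjusted over 5582 genes by Benjamini-Hochberg, with a threshold of 0.05. The fit was tested on simulated data. The number of arrays limits the precision.

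Full values were given, in each compartment, for the 5 brightest genes and the 5 largest differences, and for some others chosen after their values were seen. Members, lists and tests were chosen with earlier results of these data known. Promoters are RefSeq windows of GRCm38.p6, and motifs were matched exactly. The array names no genome build, so probe sets have no coordinates here.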

Additional observations from a re-analysis of the deposited data

How the results depend on the processing

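No chaperone gene passed when arrays were centred on their medians, with a pseudocount of 16 or 0.1, with no filter, with no variance trend, with probe sets averaged or tested singly, or without any 1 array. Dnajc2 and Hspa5, 2 genes, rose with quantile normalization (4.07% of all genes called) and with the 60th percentile filter (7.37% called). Hspa5, 1 gene, rose with the 40th percentile taken over genes (4.87% called), which was chosen after seeing the data. Scaling to the hybridization controls gave 44 genes up and 2451 down, the latter 43.9% of all genes. Among those down were 18 chaperone genes and 28 of the other folding genes. The compartment medians with this scaling were -0.45 (cytosol and nucleus), -0.56 (mitochondria) and -0.24 (endoplasmic reticulum). Over all genes, no filter gave 63 up and 53 down, and no variance trend 17 up and 2 down, with 1 folding gene outside the set up, Herpud1 being lost. The median of the endoplasmic reticulum was 0.15 with median centring, 0.16 with a pseudocount of 16 and 0.14 with averaged probe sets. That of the cytosol and nucleus was -0.060 with median centring and 0.059 with averaged probe sets. That of the mitochondria was -0.17 with median centring, -0.075 with quantile normalization, and -0.16 both with the 60th percentile filter and with probe sets. Leaving out 1 array at a time gave 25 to 41 genes up and 3 to 29 down, and medians of 0.0053 to 0.073 (cytosol and nucleus), -0.13 to -0.086 (mitochondria) and 0.20 to 0.26 (endoplasmic reticulum); the lone array left in a group was assumed to vary like the other group. Apart from fewer samples in those fits, the cause of these shifts was not tested.

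The groups share replicate numbers 1 and 2, which the labels do not tie to a shared source, and the replicate differences of the 2 groups correlated at 0.07 over 5582 genes. With a replicate block, 169 genes were up and 184 down (6.32% called), and 2 chaperone genes, Dnajc2 and Hspa5, were up.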
